A study of Homo sapiens with 11 samples.

Results

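Transcript levels of 8 transduced, doxycycline-treated cultures of MV4-11 were compared with those of 1 culture kept in DMSO. MV4-11 is an established cell line from an acute myeloid leukaemia with a rearranged KMT2A gene. A gene was taken as outside the range when its level on the DMSO array lay below all 8 transduced arrays, or above all 8, by at least 0.5 on the log2 scale. This held for 182 of the 12147 genes tested: 77 were higher on the transduced arrays (0.634% of the genes tested) and 105 were lower (0.864%). Because the genes were chosen by this difference, its size is given below as a description with no test. Levels are log2 array readings per gene, differences are the mean of the 8 arrays minus DMSO, and the gap is the distance from the DMSO reading to the nearest of the 8.

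The 8 transduced cultures each held 1 combination of short hairpin RNAs: shLuc, a luciferase hairpin used as the control, then shRUNX1, shRUNX2 and shRUNX3 singly, in the 3 pairs and all together. After transduction they were kept with doxycycline at 3 µM and collected at 24 hours. The DMSO culture received DMSO alone and was collected at 6 hours, as were companion cultures given the PIP compounds Chb-M' or Chb-50 at 1 µM. Every condition had 1 array, so the spread over the 8 comes from arrays of different hairpins, and nothing in the labels says that they came from separate transductions or days. No transduced culture without doxycycline, and no untransduced culture with it, was analysed here. The labels also do not say whether the transduced arrays and the DMSO and compound arrays were prepared or scanned together. Transduction, hairpin, doxycycline, duration, DMSO and any such batch therefore cannot be told apart in any difference below.

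Hairpin RNAs are processed by the cell's own microRNA machinery, and doxycycline is the usual switch for inducible hairpin vectors. Doxycycline is also an antibiotic that binds the ribosomes of bacteria and of mitochondria. Double-stranded RNA and viral vectors can set off the interferon response, in which secreted interferons switch on antiviral genes, while misfolded protein in the endoplasmic reticulum or the cytosol sets off the unfolded protein response and the heat shock response. Genes of these programmes, of the myeloid lineage and of the cell cycle were therefore followed as lists, in both directions.

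The arrays carried some markers of a myelomonocytic line and lacked others. On the 8 transduced arrays CSF1R, the macrophage growth factor receptor, read 7.41 to 8.07 against 7.65 on DMSO, and the myeloid transcription factor SPI1 read 8.50 to 8.67 against 8.52. The monocyte surface marker CD14 was low throughout, at 2.21 to 2.56 and 2.46, below the level of 3.80 that a gene had to reach on at least 1 array to be tested. Among the 9 arrays compared, that level was reached by 9 of 17 monocyte and macrophage genes with a reading and 11 of 11 azurophil granule genes. MPO, of the latter, read 4.99 to 5.50 on the 8 and 4.93 on DMSO. The level was also reached by 4 of 10 T and NK cell markers with a reading, 2 of 5 B cell, 4 of 9 erythroid and megakaryocyte, 2 of 5 epithelial and 0 of 5 fibroblast markers. The defining markers CD3D, CD3E, MS4A1, EPCAM and HBB stayed below it. The summed level of the 10 T and NK cell markers (log2) was 8.60 to 8.91 on the 8 and 8.60 on DMSO, and that of the B cell markers 5.63 to 5.90 and 6.06. It was 6.56 to 6.90 and 6.69 for the erythroid and megakaryocyte, 5.62 to 5.98 and 5.87 for the epithelial and 4.81 to 5.03 and 4.84 for the fibroblast markers. Their part in the differences below was not tested. Over the genes tested, array medians lay between 5.86 and 5.91. The SD of the difference between arrays was 0.173 to 0.344 for the 28 pairs of transduced arrays and 0.296 to 0.352 for DMSO against each of the 8, so those ranges overlapped. DMSO read below all 8 in 2440 genes and above all 8 in 2110 when any distance was counted. In a limma fit of the 8 arrays against DMSO, with 7 residual degrees of freedom and the DMSO array assumed to vary like the transduced ones, 97 of 12147 genes were called higher (0.799%) and 110 lower (0.906%) at a Benjamini-Hochberg adjusted p of 0.05. It used the contrast that chose the genes outside the range, so its calls below describe the gene lists and are no separate evidence for those genes.

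**Figure D1:**
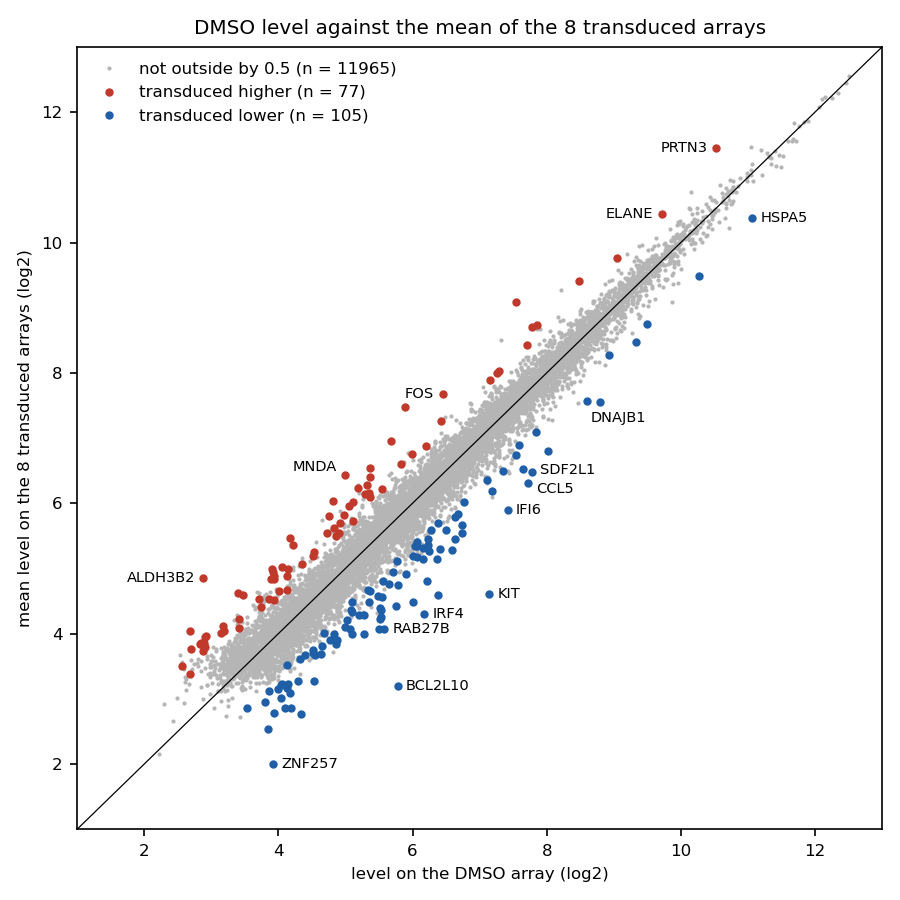
Level on the DMSO array (horizontal, log2) against the mean level on the 8 transduced arrays (vertical, log2), 1 point per gene tested; red points are the 77 genes with DMSO below all 8 by at least 0.5, blue points the 105 with DMSO above all 8 by at least 0.5, and the line marks equality. BCL2L10 and KIT lie farthest below the line, and PRTN3 and HSPA5 leave it at high levels.

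The widest separations were on the lower side, where DMSO read high. Of the 105 genes lower on the transduced arrays, 16 had a gap of at least 1 and 2 a gap of at least 2, whereas 3 of the 77 higher genes had a gap of at least 1 and 0 a gap of 2. Median gaps were nonetheless close, at 0.646 for the lower and 0.624 for the higher genes. On the higher side the members were 43 protein-coding genes, 9 microRNAs, 6 small nucleolar RNAs, 4 long non-coding RNAs, 7 pseudogenes and 8 of another or no listed type. On the lower side 92 of 105 were protein-coding. The level of 3.80 was reached on both sides by 55 of the higher and 83 of the lower genes. Whatever the compound arrays read, 22 higher genes reached it on transduced arrays but not on DMSO. Another 20 lower genes reached it on DMSO but on no transduced array. A further 2 lower genes reached it on a compound array only.

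BCL2L10, an anti-apoptotic relative of BCL2, had the largest gap of all. It read from 2.77 through a median of 3.20 to 3.43 on the 8 arrays and 5.78 on DMSO. All 8 readings lay below 3.80 and signal over background was not analysed here, so no fold is given. Its readings on Chb-M' and Chb-50 were 5.54 and 5.29. KIT, the receptor for stem cell factor on blood progenitors and mast cells, read from 4.21 through 4.61 to 5.00 on the 8 and 7.14 on DMSO, 5.76-fold lower, with 6.77 and 6.79 on the compounds. For both genes all 8 transduced arrays lay more than 2 log2 units under DMSO, and shLuc was among the highest of the 8. BCL2 itself, which was outside the naming rule and picked after its values were seen, read from 8.46 through 8.83 to 8.93 and 9.49 on DMSO.

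Receptors and regulators of lymphoid and myeloid cells followed. IRF4, a transcription factor of lymphoid and dendritic cells, read from 4.01 through 4.25 to 4.69 on the 8 and 6.18 on DMSO, 3.68-fold lower, with the lowest reading on shLuc. Among the 15 myeloid transcription factors tested, IRF4 was the only gene outside the range and the only limma call; SPI1 differed by 0.08, CEBPA by -0.10 and IRF8 by -0.28. IL2RG, the common gamma chain shared by several interleukin receptors, read from 4.35 through 4.42 to 4.82 against 6.01 on DMSO. The lectin CLEC10A of macrophages and dendritic cells read from 4.08 through 4.48 to 5.32 against 6.37, and its highest readings were on shRUNX2 and shLuc, at 5.32 and 5.31. RAB27B, a small GTPase of secretory vesicles, read from 3.61 through 4.08 to 4.33 against 5.58. GPR85, an orphan receptor, read 4.02 to 4.70 against 5.76, and MINPP1, an inositol phosphate phosphatase, 4.53 to 5.07 against 6.21. On the compound arrays these genes read 6.51 and 6.44 for IRF4, 5.73 and 5.60 for IL2RG, and 6.13 and 5.99 for CLEC10A, for Chb-M' and Chb-50 in that order.

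**Figure D2:**
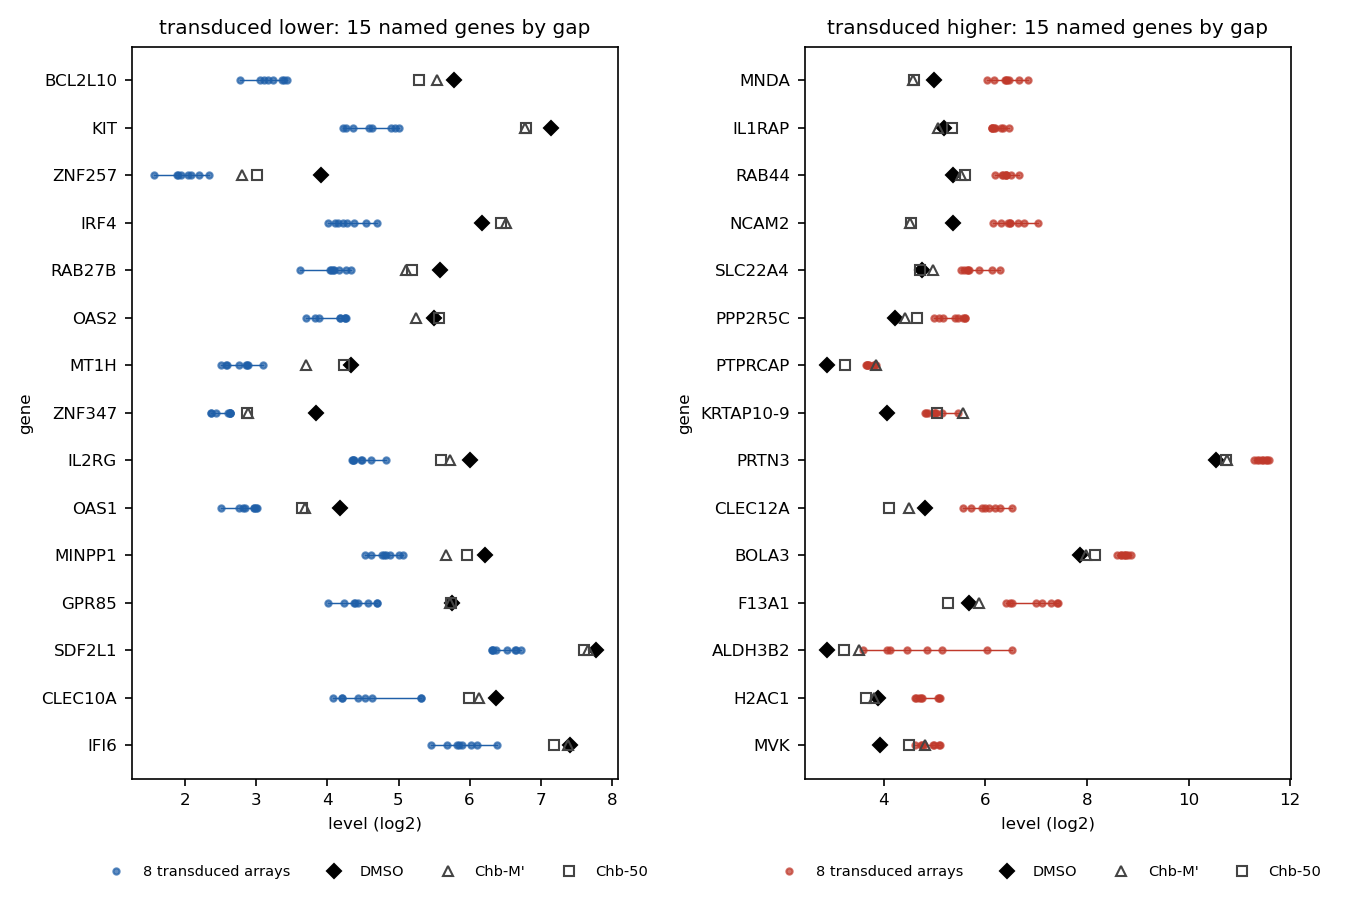
Readings (log2) of the 15 named genes with the largest gap in each direction, 1 row per gene: filled circles joined by a line are the 8 transduced arrays, the diamond is DMSO, the open triangle Chb-M' and the open square Chb-50. In every row the diamond lies outside the circles by at least 0.5; ALDH3B2 has the widest spread of circles, with an SD of 1.01.

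Of the unfolded protein response genes 5 were outside the range, all lower on the transduced arrays. HSPA5, the main Hsp70 chaperone of the endoplasmic reticulum, read from 10.17 through 10.44 to 10.53 on the 8 and 11.06 on DMSO, so the transduced mean was 62.1% of the DMSO level on the array's scale. SDF2L1, a partner of the reticulum's chaperones, read from 6.31 through 6.45 to 6.72 against 7.78, or 40.7%. MANF, a secreted protein of the stressed reticulum, read from 5.03 through 5.71 to 5.85 against 6.74. CRELD2 read 5.28 to 5.80 against 6.50, and DNAJB9, a co-chaperone of HSPA5, 4.18 to 4.55 against 5.08. On Chb-M' the 5 genes read 11.02, 7.67, 6.76, 6.74 and 4.85 in that order, and on Chb-50 10.98, 7.61, 6.92, 6.61 and 4.61.

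Over the list of 17 tested genes of this response, 16 had a negative difference. DMSO read above all 8 in 14 and below all 8 in 0, against 2110 and 2440 of all 12147 genes. The median difference was -0.47, against 0.00 over all genes tested. In the limma fit 4 of the 17 fell, against 0.906% of all genes: SDF2L1, CRELD2, DNAJB9 and DNAJC3. HSPA5 and MANF were not among the calls. EDEM1, of the degradation arm, differed by 0.03 and PDIA6, a protein disulfide isomerase, by -0.03. The count of calls was 2 without shLuc, shRUNX1 or shRUNX2+shRUNX3, and 1 without shRUNX2 or shRUNX1+shRUNX2+shRUNX3 or with additive hairpin terms.

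Promoter sequences are shown only for lower genes that hold a known element of this response's transcription factors. RefSeq start sites of GRCh38.p14 gave a window of 250 bases upstream for 109 of the 182 genes. The endoplasmic reticulum stress element (ERSE) was searched as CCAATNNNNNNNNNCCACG and its shorter form ERSE-II as ATTGGNCCACG, on both strands, taking a gene as holding one if any of its windows did. ERSE was found in 25 of 27305 genes with a window (0.0916%) and in 5 of the 17 listed genes, and ERSE-II in 18 (0.0659%) and 3 of 17. Among lower genes outside the range, 3 of 71 with a window held ERSE (HSPA5, CRELD2 and ERO1B) and 1 held ERSE-II (SDF2L1). MANF and DNAJB9, which are on the list and outside the range, held neither. Among the higher genes 0 of 38 held either. ERSE was in only 13 of 9215 tested genes (0.141%), so little can be read from that 0. Listed genes with a match but not outside the range were XBP1, PDIA6 and CALR for ERSE, and HERPUD1 and HYOU1 for ERSE-II. Of these, PDIA6 hardly differed from DMSO. ERO1B, an oxidase of the reticulum that is not on the list and was picked for its match, read from 2.93 through 3.26 to 3.49 against 4.04. All 8 of its transduced readings lay below 3.80, so it was tested only through DMSO. A match is a description of the letters. In the windows below, 5′ to 3′ on the gene's strand, capitals mark the match.
HSPA5 promoter, chr9:125241344-125241593, minus strand: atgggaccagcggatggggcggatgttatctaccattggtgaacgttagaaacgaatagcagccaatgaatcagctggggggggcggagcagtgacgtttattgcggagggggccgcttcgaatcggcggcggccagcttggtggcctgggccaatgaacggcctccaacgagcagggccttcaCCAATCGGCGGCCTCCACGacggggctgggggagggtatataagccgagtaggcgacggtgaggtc
CRELD2 promoter, chr22:49918384-49918633, plus strand: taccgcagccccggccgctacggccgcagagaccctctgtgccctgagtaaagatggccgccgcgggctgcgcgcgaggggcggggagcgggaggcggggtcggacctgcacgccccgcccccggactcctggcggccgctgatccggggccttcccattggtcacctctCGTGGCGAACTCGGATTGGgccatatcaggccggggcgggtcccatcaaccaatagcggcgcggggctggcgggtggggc
ERO1B promoter, chr1:236281959-236282208, minus strand: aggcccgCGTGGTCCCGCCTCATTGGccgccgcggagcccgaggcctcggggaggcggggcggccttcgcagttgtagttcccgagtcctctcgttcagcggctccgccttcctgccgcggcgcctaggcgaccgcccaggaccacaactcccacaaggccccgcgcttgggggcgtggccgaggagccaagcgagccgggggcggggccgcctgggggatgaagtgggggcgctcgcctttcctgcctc
SDF2L1 promoter, chr22:21642052-21642301, plus strand: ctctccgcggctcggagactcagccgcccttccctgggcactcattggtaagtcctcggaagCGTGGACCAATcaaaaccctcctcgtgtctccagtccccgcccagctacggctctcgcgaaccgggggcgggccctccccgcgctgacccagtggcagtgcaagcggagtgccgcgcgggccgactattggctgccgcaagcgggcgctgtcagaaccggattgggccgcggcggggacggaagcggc

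Of the heat shock genes, which encode chaperones of the cytosol, 3 were outside the range, all lower. DNAJB1, a co-chaperone of the Hsp70 family induced by heat, read from 7.40 through 7.57 to 7.69 on the 8 and 8.59 on DMSO, 49.1% of the DMSO level. HSPH1, a nucleotide exchange factor for Hsp70, read from 9.30 through 9.51 to 9.66 against 10.26, and BAG3, which links Hsp70 to selective autophagy, from 5.43 through 5.59 to 5.74 against 6.28. Of 10 tested heat shock genes 9 had a negative difference, and the median difference was -0.56. DMSO read above all 8 in 8 of the 10, against 2110 of all 12147 genes. These 3 genes fell in the limma fit (3 of 10, against 0.906% of all genes), and 0 of 10 rose; with additive hairpin terms 1 passed, and 2 to 4 did when 1 transduced array was left out. HSP90AB1 differed by -0.02 and HSPA4 by 0.05. Compound readings were 8.49 and 8.59 for DNAJB1, 10.25 and 10.35 for HSPH1, and 6.52 and 6.46 for BAG3. The co-chaperone DNAJA4 and the Hsp70 gene HSPA1L, outside the list and picked after their values were seen, read 4.96 to 5.40 against 6.36 and 4.03 to 4.44 against 5.19. The Hsp70 family has close copies, so a reading of 1 member may include another. The heat shock element, searched as GAANNTTCNNGAA on both strands, was in the windows of 152 of 27305 genes (0.557%). It was in 4 of the 10 listed genes (HSP90AA1, HSP90AB1, CHORDC1 and SERPINH1) and in 0 of 109 genes outside the range. Only 37 of 9215 tested genes (0.402%) held it, so little can be read from that 0.

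Of the interferon-stimulated genes 5 were outside the range, all lower on the transduced arrays. OAS2, an antiviral synthetase that senses double-stranded RNA, read from 3.70 through 4.18 to 4.26 on the 8 and 5.50 on DMSO, 2.71-fold lower. Its relative OAS1 read from 2.51 through 2.90 to 3.01 against 4.18, and IFI6, an interferon-induced membrane protein, from 5.45 through 5.87 to 6.38 against 7.42. IRF7, the transcription factor that amplifies interferon production, read from 4.36 through 4.59 to 4.77 against 5.48. MX1, an antiviral GTPase, read from 2.72 through 2.87 to 2.95 against 3.53; its DMSO reading was itself below the level of 3.80, which it reached on Chb-M' at 3.82. The lowest reading of OAS2, IFI6 and IRF7 among the 8 was on shLuc. OAS2 read 5.24 and 5.56 on Chb-M' and Chb-50, and IFI6 7.38 and 7.19.

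Of 23 tested interferon-stimulated genes, these 5 were the ones outside the range. OAS1 and MX1 read below 3.80 on all 8 transduced arrays. OAS1 was tested only because DMSO reached that level, so it could only read lower. A negative difference was seen in 21 of 23, and the median difference was -0.33. DMSO read above all 8 in 13 and below all 8 in 0, against 2110 and 2440 of all 12147 genes. The list was not uniform: USP18 read 4.48 to 6.08 around a DMSO reading of 5.53, XAF1 differed by -0.03, HERC5 by 0.01 and TRIM22 by 0.17. ISG15 read 5.03 to 5.58 against 5.97 and missed the rule by its gap of 0.39. EIF2AK2, the kinase PKR that double-stranded RNA activates, was outside the list and picked after its values were seen; it read from 6.48 through 6.76 to 6.90 against 7.54.

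The core of the interferon-stimulated response element, searched as GAAANNGAAA on both strands, was in 1014 of 27305 genes with a window (3.71%) and in 10 of 17 listed genes with one. Among genes outside the range it was in 3 of 71 lower genes with a window, IFI6, MX1 and ITGB5. It was also in 3 of 38 higher genes, MNDA, VIT and FAM13A-AS1, each with 1 match. IFI6 held 3 matches. MX1 has 3 windows, of which 1 held a match. Both windows are shown, capitals marking the matches.
IFI6 promoter, chr1:27672193-27672442, minus strand: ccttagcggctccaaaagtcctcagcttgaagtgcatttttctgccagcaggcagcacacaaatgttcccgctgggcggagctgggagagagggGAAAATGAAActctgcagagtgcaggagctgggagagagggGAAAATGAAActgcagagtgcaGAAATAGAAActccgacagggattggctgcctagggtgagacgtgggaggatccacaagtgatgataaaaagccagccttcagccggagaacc
MX1 promoter, chr21:41431800-41432049, plus strand: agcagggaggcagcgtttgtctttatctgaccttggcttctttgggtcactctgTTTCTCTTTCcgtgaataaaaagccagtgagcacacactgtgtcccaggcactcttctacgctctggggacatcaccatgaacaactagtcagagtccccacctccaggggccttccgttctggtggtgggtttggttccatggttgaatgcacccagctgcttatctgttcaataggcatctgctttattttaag

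**Figure D3:**
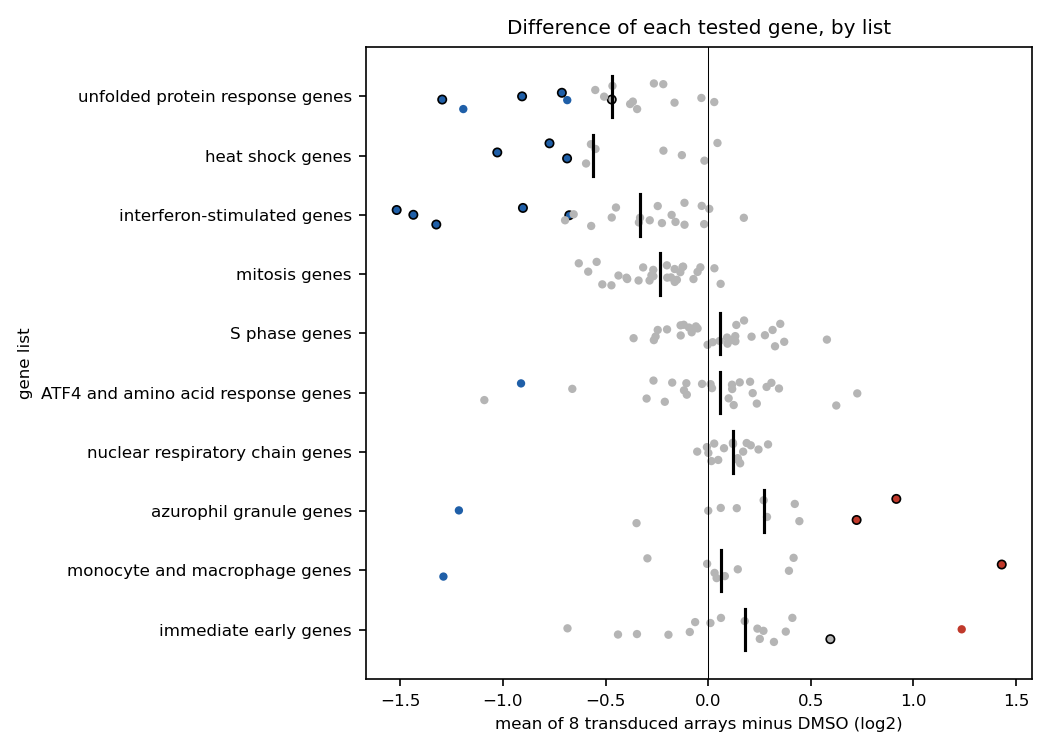
Difference of each tested gene (mean of the 8 transduced arrays minus DMSO, log2) for 10 gene lists, 1 point per gene; red and blue points are genes outside the range by 0.5 (higher and lower), black outlines mark limma calls at an adjusted p of 0.05, black bars are list medians, and vertical scatter is for display. The unfolded protein response, heat shock and interferon lists have medians of -0.47, -0.56 and -0.33, and the azurophil granule list 0.27.

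Genes of the neutrophil and monocyte lineage were found on both sides. PRTN3, the proteinase 3 of azurophil granules, read from 11.28 through 11.46 to 11.59 on the 8 and 10.53 on DMSO, 1.89-fold higher, with an SD of 0.10 over the 8. ELANE, neutrophil elastase, read from 10.22 through 10.42 to 10.67 against 9.72 and was the higher gene closest to the threshold, with a gap of 0.50. Both rose in the limma fit, 2 of 11 tested azurophil granule genes against 0.799% of all genes, and the median difference of the list was 0.27; 1 of the 2 passed with additive hairpin terms, with quantile normalization, without the level filter, or without any 1 of shRUNX1, shRUNX2, shRUNX3, shRUNX1+shRUNX2, shRUNX2+shRUNX3 or shRUNX1+shRUNX2+shRUNX3. CST7, a cystatin that restrains granule proteases, went the other way: it read from 6.14 through 6.87 to 7.23 against 8.01. AZU1, the granule's azurocidin, differed by 0.00 and RNASE2 by 0.06. On Chb-M' and Chb-50 PRTN3 read 10.76 and 10.74, and ELANE 9.71 and 9.71.

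MNDA, a nuclear antigen of myeloid cells, had the largest gap of the named higher genes. It read from 6.04 through 6.42 to 6.85 on the 8 and 5.00 on DMSO, 2.70-fold higher, and 4.57 and 4.60 on the compounds. It was the only limma call among 10 tested monocyte and macrophage genes. ITGAX, the CD11c integrin chain, was lower, from 3.23 through 3.91 to 4.74 against 5.28, while CSF1R differed by 0.00, CD68 by 0.03 and S100A9 by 0.42. CLEC12A, an inhibitory lectin receptor of myeloid cells and blasts, read from 5.57 through 6.03 to 6.53 against 4.82. F13A1, the coagulation factor XIII chain of monocytes and platelets, read from 6.41 through 7.06 to 7.44 against 5.68. IL1RAP, the accessory chain of the interleukin-1 receptor, read from 6.12 through 6.18 to 6.46 against 5.19, and its second array feature differed by 0.94, also with a gap over 0.5. TREM1, an activating receptor of monocytes picked after its values were seen, was lower, at 3.92 to 4.54 against 5.51.

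The other named higher genes had varied roles. RAB44, a large Rab GTPase, read 6.19 to 6.66 against 5.36; NCAM2, an adhesion molecule, 6.15 to 7.03 against 5.37; SLC22A4, an organic cation transporter, 5.52 to 6.29 against 4.75; and BOLA3, which serves mitochondrial iron-sulfur proteins, 8.60 to 8.87 against 7.86. PTPRCAP, KRTAP10-9 and H2AC1 read 3.64 to 3.85 against 2.88, 4.81 to 5.47 against 4.06, and 4.61 to 5.10 against 3.89. PPP2R5C, a regulatory subunit of protein phosphatase 2A, read 4.99 to 5.60 against 4.22 on the feature used, but its other feature differed by 0.00. RAB44's other feature differed by 0.46. ALDH3B2, an aldehyde dehydrogenase, read from 3.60 through 4.65 to 6.53 against 2.88, with 6.53 on shRUNX2 and 6.04 on shRUNX1. It was tested only through transduced arrays, so it could not have been lower by the rule.

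MVK, which encodes mevalonate kinase, was the only 1 of 16 tested cholesterol synthesis genes outside the range and the only limma call among them. It read from 4.61 through 4.88 to 5.10 on the 8 and 3.93 on DMSO, but 4.80 and 4.50 on Chb-M' and Chb-50. MSMO1 differed by 0.60 and HMGCS1, the entry enzyme of the pathway, by 0.07. FOS, the immediate early transcription factor, read from 7.12 through 7.65 to 8.39 against 6.45, with 8.01 on Chb-M' and 6.69 on Chb-50. Of 17 tested immediate early genes FOS alone was outside the range, and it was not a limma call. ZFP36, which encodes an mRNA decay factor, was the only one of the list to rise in that fit, with 8.69 to 8.89 against 8.20 (limma adjusted p = 0.02) and a gap of 0.48. EGR1 differed by 0.38 and JUN by 0.25. SPRED2, an inhibitor of ERK signalling, rose as the 1 call among 8 tested genes of ERK feedback, at 4.35 to 4.63 against 3.90.

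Metal, stress and chemokine genes completed the lower side. MT1H and MT1M, metallothioneins that bind zinc and copper, read from 2.50 through 2.81 to 3.10 against 4.33 and from 2.57 through 2.85 to 3.35 against 4.10. Both reached the level of 3.80 on DMSO and on no transduced array. Chb-50 also reached it, at 4.23 and 4.47, as did Chb-M' for MT1M, at 3.89. No transduced array admitted either gene, so nothing is drawn from their place on a list. Of the 10 tested metallothionein and zinc response genes 6 had a negative and 4 a positive difference, with a median of -0.06. MT1F, MT1G and MT2A, which read high on every array, differed by -0.10, 0.18 and 0.02. The metallothioneins are near-identical copies, so their readings may mix. HMOX1, the haem oxygenase of the NRF2 response, read from 5.99 through 6.43 to 7.08 against 7.64, while 0 of 15 tested NRF2 targets passed the limma test and TXNRD1 differed by 0.01. DDIT3, a transcription factor of the integrated stress response, read from 2.72 through 3.44 to 3.44 against 4.14; its second feature differed by -0.33, and ATF4 itself differed by 0.24. ALDOC, a glycolytic aldolase, read from 4.49 through 4.80 to 4.93 against 5.78 and was the only call among 20 hypoxia and glycolysis genes. CCL5, a chemokine for T cells and monocytes, read from 5.67 through 6.28 to 6.89 against 7.72. CSF2RB, the beta chain shared by the receptors for GM-CSF and interleukin-3, fell in the limma fit at 6.64 to 6.84 against 7.30, with a gap of 0.46.

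**Figure D4:**
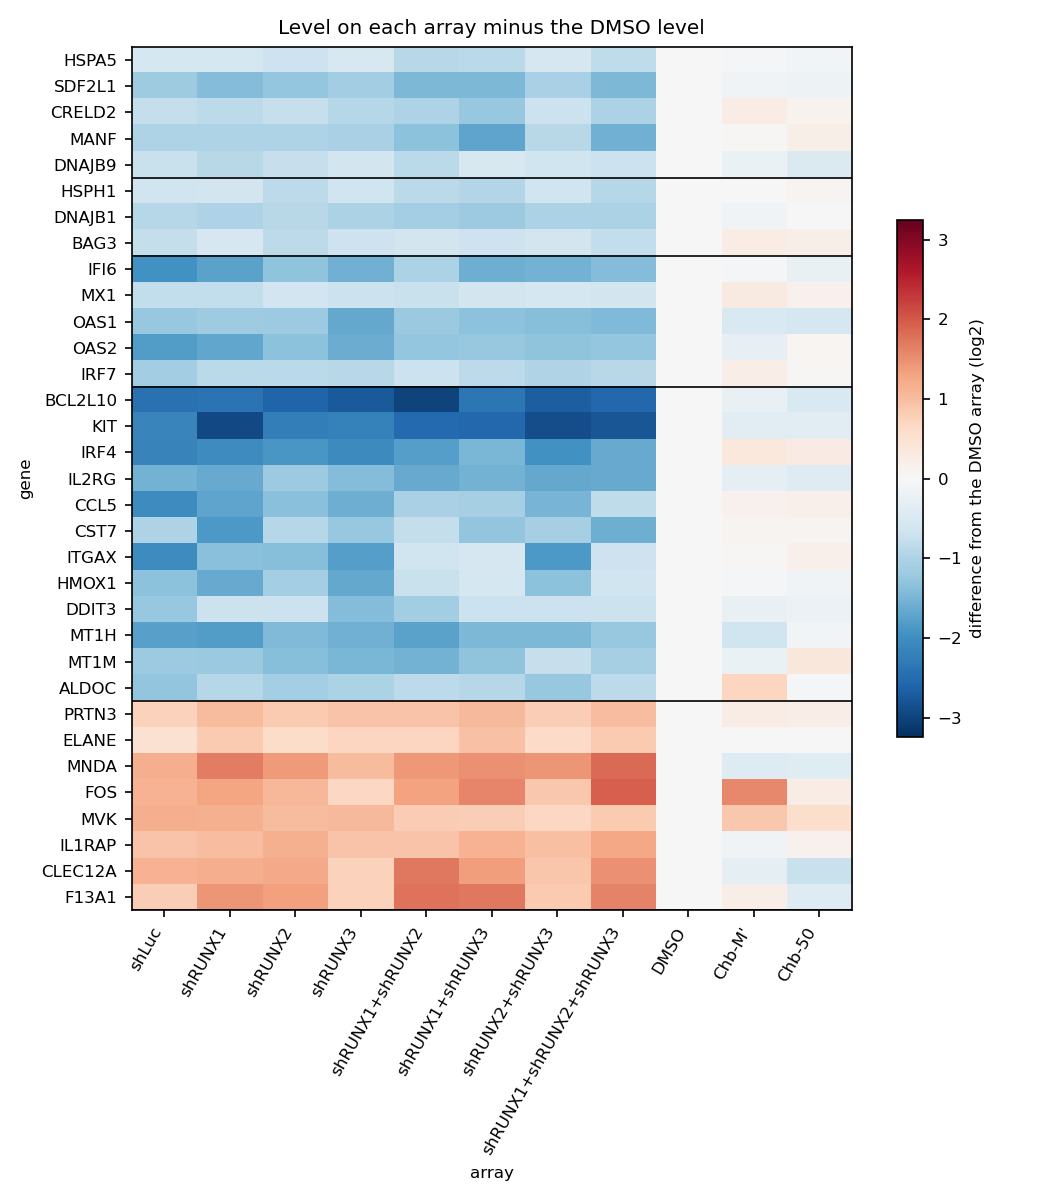
Level of 33 named genes on each of the 11 arrays minus the level on DMSO (log2; blue lower, red higher, DMSO 0 by construction), with lines between the unfolded protein, heat shock, interferon, other lower and higher genes. Differences run from -3.01 for BCL2L10 on shRUNX1+shRUNX2 to 1.94 for FOS on shRUNX1+shRUNX2+shRUNX3; on the Chb-M' array FOS is at 1.56.

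Lists of other programmes carried 0 genes outside the range. None of 28 tested mitosis genes passed the limma test, although 26 had a negative difference and the median was -0.23; the 8 arrays themselves were spread, as for ASPM, a spindle protein, at 7.21 to 8.42 against 8.50. S phase genes had a median of 0.06 and 0 calls among 29, with TYMS, thymidylate synthase, at 7.89 to 9.37 around 9.10. Of 17 nuclear respiratory chain genes 15 had a positive difference with a median of 0.12, and ATP5F1A was the highest at 0.29 (limma adjusted p = 0.09). The 8 mitochondrially encoded genes had a median of 0.04 and the 21 mitochondrial translation genes 0.04, both with 0 calls. In all, 29 of 41 lists with a tested gene had 0 limma calls, and 2116 of 12147 genes had an unadjusted p under 0.05 in that fit.

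The members included runs of neighbouring zinc-finger genes, a grouping made after the values were seen. ZNF-named genes encode DNA-binding proteins, many of them KRAB repressors of transposable elements, that lie in clusters on chromosome 19. Of 179 tested ZNF-named genes of chromosome 19, 12 were lower on the transduced arrays by the rule (6.70%) and 0 higher, against 6 of 749 other protein-coding genes of that chromosome (0.801%) and 1 of 178 ZNF-named genes elsewhere (0.562%). Of the 12, 6 reached the level of 3.80 on both sides, 5 on DMSO but on no transduced array, and 1 on a compound array only. Of those 5, ZNF486 and ZNF626 also reached it on Chb-M' and Chb-50. The others passed only through DMSO and had to read lower on the transduced arrays, so nothing is drawn from the share. The median difference of the 179 was -0.09, with 119 negative and 60 positive. In the order of RefSeq genes on GRCh38.p14, 5 of the 12 (ZNF486, ZNF737, ZNF626, ZNF43 and ZNF257) lie in a run of 17 protein-coding genes, of which 14 were tested, 9 with a negative and 5 with a positive difference.

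ZNF257 had the third largest gap of the lower genes, at 1.56 through 1.99 to 2.34 on the 8 and 3.91 on DMSO. On Chb-M' and Chb-50 it read 2.81 and 3.00. ZNF43 read 4.10 to 4.67 against 5.53, with 5.80 and 5.63 on the compounds, and ZNF486 2.52 to 3.63 against 4.53. ZNF737 was spread, from 3.40 on shRUNX1 to 4.87 on shRUNX3, against 5.51. ZNF347, also of chromosome 19 but outside the run, read 2.36 to 2.62 against 3.85. These genes are close relatives of each other, so probes of 1 may read another, and 5 neighbours need not be 5 independent readings.

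**Figure D5:**
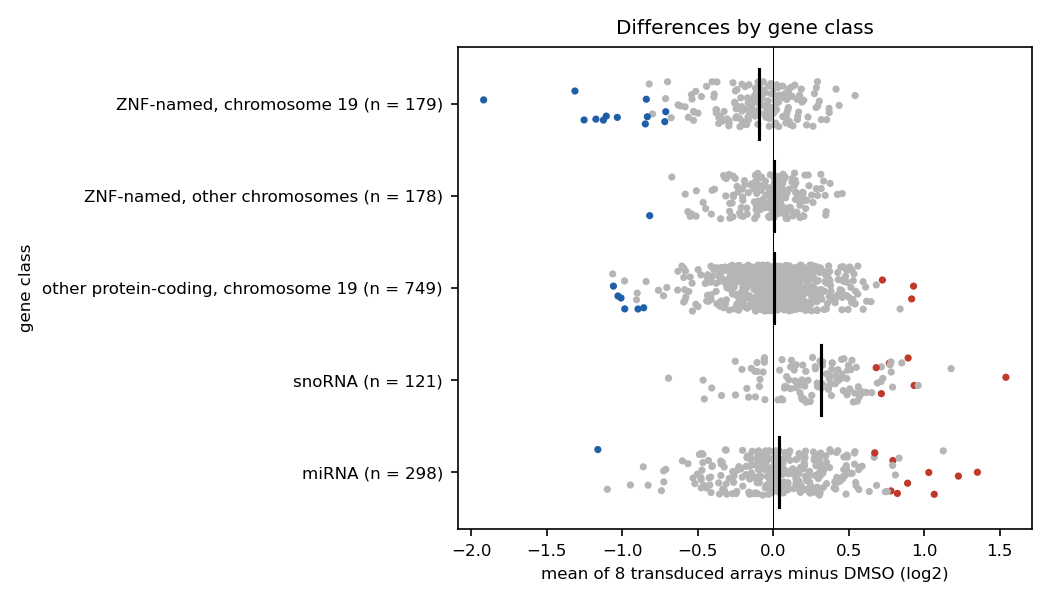
Difference of each tested gene (mean of the 8 transduced arrays minus DMSO, log2) for 5 classes of genes, 1 point per gene; red and blue points are genes outside the range by 0.5, black bars are medians, and vertical scatter is for display. The 12 blue points of the top row are ZNF-named genes of chromosome 19, and the small nucleolar RNA row has a median of 0.32.

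Small RNA genes made up 15 of the 77 higher genes. Small nucleolar RNAs guide the chemical modification of ribosomal RNA. Of 121 tested, 6 were higher by the rule (4.96%) and 0 lower, against 0.634% and 0.864% of all genes tested. The median difference of the 121 was 0.32. Of the 6, SNORD92 reached the level needed for testing on transduced arrays and on Chb-M' (3.91) but not on DMSO (3.41). Nothing is therefore drawn from its direction. SNORA22 read from 8.50 through 9.29 to 9.48 on the 8 and 7.55 on DMSO, with 8.60 on Chb-M' and 7.64 on Chb-50. SNORD32B read 9.64 to 9.90 against 9.04 and SNORD3C, a copy of the U3 RNA, 9.18 to 9.66 against 8.48. Many such RNAs have close copies, and the share of short RNA kept by the extraction was not analysed here.

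MicroRNA genes were the other short class, with 9 of 298 higher (3.02%), 1 lower and a median of 0.04. Among all genes tested, 0.634% were higher and 0.864% lower. MIR4468, MIR3135B, MIR3130-1 and MIR4302 reached the level needed for testing on transduced arrays but not on DMSO. MIR501 reached it on DMSO but on no transduced array. A gene reaching that level on a single side can lie outside the range in that direction only, so nothing is drawn from the share. A mature microRNA pairs with its targets through bases 2 to 8, the seed; the array reads the hairpin gene and does not separate the mature form. MIR221 read from 5.58 through 5.69 to 5.87 on the 8 and 4.92 on DMSO. Its neighbour MIR222 read 3.10 to 3.38 around 3.30 on DMSO, all below 3.80, so whether MIR222 differed cannot be told. MIR494 read from 5.25 through 5.60 to 5.71 against 4.72, but 5.58 and 5.19 on Chb-M' and Chb-50. MIR590 read 6.09 to 6.39 against 5.54, and MIR501, the lower one, 2.42 to 3.03 against 3.94. RefSeq (GRCh38.p14) gave 15 mature sequences for these 10 genes, with 15 different seeds. Those of the genes just described are shown 5′ to 3′, with the seed in capitals.
hsa-miR-221-3p, chrX:45746180-45746202, minus strand: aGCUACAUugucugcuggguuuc
hsa-miR-494-3p, chr14:101029681-101029702, plus strand: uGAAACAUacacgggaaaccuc
hsa-miR-494-5p, chr14:101029648-101029670, plus strand: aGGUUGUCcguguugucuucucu
hsa-miR-590-5p, chr7:74191213-74191234, plus strand: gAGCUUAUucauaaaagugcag
hsa-miR-590-3p, chr7:74191253-74191273, plus strand: uAAUUUUAuguauaagcuagu
hsa-miR-501-3p, chrX:50009772-50009793, plus strand: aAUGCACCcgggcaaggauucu
hsa-miR-501-5p, chrX:50009735-50009756, plus strand: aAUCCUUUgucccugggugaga

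The genes outside the range varied somewhat more among the 8 arrays than others did. The SD over the 8 had a median of 0.184 for the 182 genes and 0.132 for all genes tested. Array by array, the median reading of the 77 higher genes was 5.17 on shLuc, the lowest of the 8, and 5.65 on shRUNX1, the highest, against 4.53 on DMSO, 4.60 on Chb-M' and 4.72 on Chb-50. The 105 lower genes had medians of 4.43 to 4.67 on the 8, 5.58 on DMSO, 5.66 on Chb-M' and 5.60 on Chb-50. The compound arrays entered the choice of genes through the level of 3.80 and the choice of feature for genes with several, and not through the gap. The array nearest to DMSO varied: for the higher genes it was shLuc in 19 and shRUNX2+shRUNX3 in 15, and for the lower genes shRUNX1+shRUNX3 in 20, shRUNX1+shRUNX2 and shRUNX2+shRUNX3 in 17 each and shLuc in 14.

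Apart from ALDH3B2, the widest members over the 8 arrays were ITGAX, ZNF737 and CRISPLD2, listed after their values were seen. ITGAX read 4.62, 4.74 and 4.59 on the 3 arrays that combined shRUNX1 with another hairpin, and 3.23 on shLuc, 3.41 on shRUNX2+shRUNX3 and 3.50 on shRUNX3. HMOX1 had the same 3 arrays highest, at 6.93, 7.08 and 7.01, as did CCL5, at 6.66, 6.63 and 6.89. In an additive limma fit of the 3 RUNX hairpins on the 8 arrays, with 4 residual degrees of freedom, 0 genes were called for any hairpin (0% of 12147), members included. At an unadjusted p under 0.05 there were 2580, 593 and 1141 genes for shRUNX1, shRUNX2 and shRUNX3, among them 33, 14 and 13 of the 182.

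RUNX2, RUNX3 and CBFB were not outside the range. RUNX2 read 5.56 to 5.82 on the 4 arrays with its hairpin and 6.00 to 6.30 on the 4 without it, around 6.13 on DMSO. RUNX3 read 7.65 to 7.87 with its hairpin and 7.70 to 8.37 without it, so those ranges overlapped, and 8.30 on DMSO. RUNX1 shares its array feature with LOC100506403, which read 3.96 to 4.26 with the hairpin, 4.20 to 4.45 without it, again overlapping, and 4.20 on DMSO. CBFB, the shared partner of the RUNX proteins, read 9.22 to 9.47 on the 8 and 9.57 on DMSO.

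The threshold of 0.5 cut through a continuous range of gaps. Just inside it were ELANE (0.501), RPL22L1 (0.503) and RPL7 (0.511) on the higher side and CCDC107 (0.508), RNF8 (0.509) and FKBP14 (0.509) on the lower side. Just outside were CST6 (0.498), ZBTB8OS (0.493) and IL2RA (0.486), and ITGAV (0.498), HERC6 (0.496) and CLCN3 (0.495).

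The line's baseline was read from the 20 genes highest on both control arrays, shLuc and DMSO, ranked by the lower reading. Array readings do not order RNA amounts between genes, so the ranking describes the array signal. Mitochondrially encoded genes took 7 places: ND2 read 12.55 on shLuc and 12.52 on DMSO, COX1 12.45 and 12.46, ND1 12.25 and 12.26, and COX2 12.27 and 12.15, followed by CYTB, ND5 and ND3. Translation and RNA genes took others, with the elongation factor EEF2 at 11.79 and 11.76, RPS15, RPS28 and RPS27, the splicing regulator PTBP1, SNORD13, and RMRP, the RNA of an RNA-processing enzyme. FTL, the ferritin light chain, read 11.86 and 11.90, the tubulin TUBB 11.93 and 11.84, and SRGN, the granule proteoglycan of blood cells, 11.78 and 11.69. OAZ1, HNRNPA1P10 and ELF1 completed the 20; HNRNPA1P10 is a pseudogene whose reading may come from its parent.

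None of these 20 was outside the range by 0.5, and shLuc minus DMSO ran from -0.17 for RPS27 to 0.17 for CYTB. Among the 100 highest, the 2 genes outside the range were PRTN3 and HSPA5, which were also the 2 with shLuc and DMSO at least 0.5 apart: 11.28 against 10.53, and 10.48 against 11.06.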

How the data were processed

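RNA of 11 MV4-11 cultures, 1 per condition, was hybridised to Affymetrix whole-transcript arrays. The authors deposited log2 levels for transcript clusters, each a set of probes for 1 locus. Per the submitters' processing notes the software was Affymetrix Expression Console 1.3.1 with RMA and Transcriptome Analysis Console 1.0; the step each served, and the build of the annotation, are not given in the sources used here. Signal over background was not analysed here, and precision is limited by the number of arrays.

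Of 53617 clusters 23558 had 1 gene symbol, 2155 several and 27904 none in the platform annotation. For 618 genes with more than 1 cluster the one with the highest mean over the 11 arrays was used. Genes reaching 3.80 on any of the 11 arrays, the median of all values of 1-symbol clusters, were tested (12147 of 22109). Fits used limma 3.58.1 in R 4.3.3 with eBayes and Benjamini-Hochberg adjustment over all genes tested, and were tested on simulated data. Since the labels name no separate cultures, animals or days, every p-value reflects the spread of these arrays alone, which may be technical.

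Named genes were the 15 with the largest gap in each direction (small RNAs, olfactory receptors, antisense, uncharacterised, pseudogene and immune receptor segment symbols left out), members in 1 of the gene lists, the extremes of each list, the 20 of the baseline, the RUNX and CBF genes and the genes next to the threshold; microRNA, small nucleolar and zinc-finger genes were named after their values were seen. The members and lists were chosen with earlier results of these data known.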

Additional observations from a re-analysis of the deposited data

How the results depend on the processing

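For the 30 genes named by their gap, leaving out an array or taking shLuc alone cannot turn the direction, which the choice of genes fixes. Centring, quantile normalization and the mean over a gene's clusters, which could, did not turn it for any of the 30. A gap of 0.3 in place of 0.5 gave 277 higher and 341 lower genes, and a gap of 1 gave 3 and 16. Leaving out 1 transduced array at a time, which can only add genes to those outside the range, gave 79 to 93 higher and 109 to 127 lower genes. The limma calls moved more: leaving out 1 array gave 35 to 85 higher and 55 to 109 lower genes, fewest without shRUNX2. Additive hairpin terms gave 16 higher and 42 lower calls. Without the level filter 167 genes were called lower. Centring each array on its median, quantile normalization over the 9 arrays, the mean over a gene's clusters and eBayes with a trend kept the counts of calls within 1.5 times. Of the 20 baseline genes, 18 remained when ranked by the mean of both control arrays and 19 when ranked by the lowest of the 9. No paired analysis was possible because every condition has 1 array, numbered replicate 1. With 1 DMSO array, its own spread is unknown.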

Other observations

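Array features without a gene name were also found outside the range. Of 27904 features with no listed symbol, 286 read higher on all 8 transduced arrays than on DMSO by at least 0.5 and 285 read lower, before any filter on level. Of 23558 features with 1 symbol, counted the same way, 107 were higher and 153 lower. Of 2155 features shared by several genes, 8 were higher and 16 lower.

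CHORDC1P4, a pseudogene of the Hsp90 co-chaperone gene CHORDC1, read 8.23 to 8.69 on the 8 arrays and 9.34 on DMSO. CHORDC1 itself read 4.07 to 4.37 against 4.83, with a gap of 0.46 and a limma adjusted p of 0.06. Whether the pseudogene's feature reads the parent's RNA was not tested.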
